A study of Mus musculus with 7 samples.

Results

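Aminoacyl-tRNA synthetases are the enzymes that join each amino acid to its transfer RNA. The set described here holds 35 genes, 20 cytosolic and 15 mitochondrial, chosen by gene symbol from the 38293 genes listed in the count table of mouse small intestine. All 35 were among the 14869 genes that passed the filter on low counts. The 7 libraries came from 7 male C57BL/6NRJ mice, 8 weeks old and housed individually, which ate a high-fat AIN93G diet for 1 week of acclimatization and then either the same diet with 0.38% cystine (normal cys, n = 4) or a version with 0.08% cystine (low cys, n = 3) for 2 weeks. In the low cys diet the added L-cystine was replaced by alanine, so that cysteine supply and alanine supply changed together and cannot be told apart. Each library is poly(A) RNA of 1 mouse, from scrapings of the last of 4 equal lengths of the small intestine (ileum) that hold epithelium and lamina propria, after a short fast. The comparison asks whether less dietary cystine changed the RNA levels of these enzymes.

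Most synthetases recognise a single amino acid and the transfer RNAs that belong to it. The charged transfer RNA then delivers that amino acid to the ribosome. Mammalian cells make proteins in the cytosol and in mitochondria, and nuclear genes, mostly separate ones, encode the synthetases of each compartment. When an amino acid is short, uncharged transfer RNA activates the kinase GCN2, and the transcription factor ATF4 that is translated as a result raises amino acid transporters, biosynthetic enzymes and many cytosolic synthetases. In the gut this matters for an epithelium that renews itself continually and whose crypt cells have a high rate of protein synthesis.

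The libraries held 19712355 to 22412703 counts with normal cys and 14888760 to 21942518 with low cys, and no pair of libraries agreed within counting noise. Levels are given as CPM, which are counts scaled to the library size adjusted by TMM, and levels of different genes are compared only per kilobase of exon (RPKM). The single-gene spread between mice was 25.5% (common biological coefficient of variation). Ileal enterocyte markers were abundant in every library, at a summed 15395 to 48275 CPM. Markers of pancreas summed to at most 0.245 CPM, and those of liver and lung to 0.993 to 2.13 CPM.

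The sequence that ATF4 and its C/EBP partners bind is the reason for showing promoter sequence first. RefSeq promoter windows (GRCm38.p6, from 250 bases before to 50 bases after the start) were at hand for 26 of the 35 members. The core TGATGNAA, or its reverse complement TTNCATCA, was searched on both strands. It stood in the windows of 5 of the 26 members (19.2%), against 4.51% of all 27025 genes with a window and 3.97% of all 32851 windows. All 5 were cytosolic. They made up 5 of the 12 cytosolic members with a window and 5 of the 7 that are usually listed as ATF4 targets, while none of the 5 other cytosolic and none of the 14 mitochondrial members with a window held the core. A match is a run of letters and not a measured binding site. The stretches below are read along the gene, 5′ to 3′, and the capitals mark the core in either orientation.
Aars, chr8:111033840-111033869, plus strand: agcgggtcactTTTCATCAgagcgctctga
Gars, chr6:55037960-55037989, plus strand: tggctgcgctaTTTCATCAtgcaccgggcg
Iars, chr13:49682126-49682155, plus strand: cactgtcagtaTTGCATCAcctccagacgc
Tars, chr15:11399655-11399684, minus strand: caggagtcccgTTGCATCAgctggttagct
Yars, chr4:129189895-129189924, plus strand: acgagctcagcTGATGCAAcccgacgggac
The Aars stretch shown, from the gene of the alanyl-tRNA synthetase, has a core that began at base 10, counting the annotated start as base 1. In Gars (glycyl) it began 30 bases before the start and in Tars (threonyl) 15 bases before. In Iars (isoleucyl) and Yars (tyrosyl) it began at bases 8 and 4.

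No member changed with the diet at the adjusted threshold. The edgeR quasi-likelihood test with Benjamini-Hochberg adjustment over all genes tested called 0 of 35 at an adjusted p under 0.05, beside 0% of all genes, and the members' adjusted p ran from 0.794 to 0.994. DESeq2 and limma-voom also called 0 members, although DESeq2 called 16 genes elsewhere in the table. At an unadjusted p under 0.05, 1 member passed with each of the 3 tools, against 5.49% of all genes with edgeR. It was Qars, which was lower with low cys (1 of 35 members, against 2.83% of all genes lower), and no member passed in the other direction (2.66% of all genes higher). Most estimates were small and above 0. The estimate lay above 0 for 29 of 35 members (82.9%), beside 51.2% of all genes, and its median was 0.14 on the log2 scale, beside 0.01 for all genes. In scrapings of whole mucosa, fewer cells of a type and less RNA per cell cannot be told apart.

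The precision differed between members. The standard errors of the log2 fold changes ran from 0.110 for Qars to 0.397 for Vars, with 54 to 5528 counts per member and library. For 31 of 35 members the 95% interval lay within 1 log2 unit on either side of 0, so that a change of more than 2-fold was outside it. The widest bounds were -0.61 and 1.35. In 31 of 35 members the low cys mean lay inside the range of the 4 normal cys mice. The mean of Qars lay below that range, and those of the mitochondrial members Rars2, Ears2 and Yars2 lay above it. The same count was not taken over all genes.

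**Figure D1:**
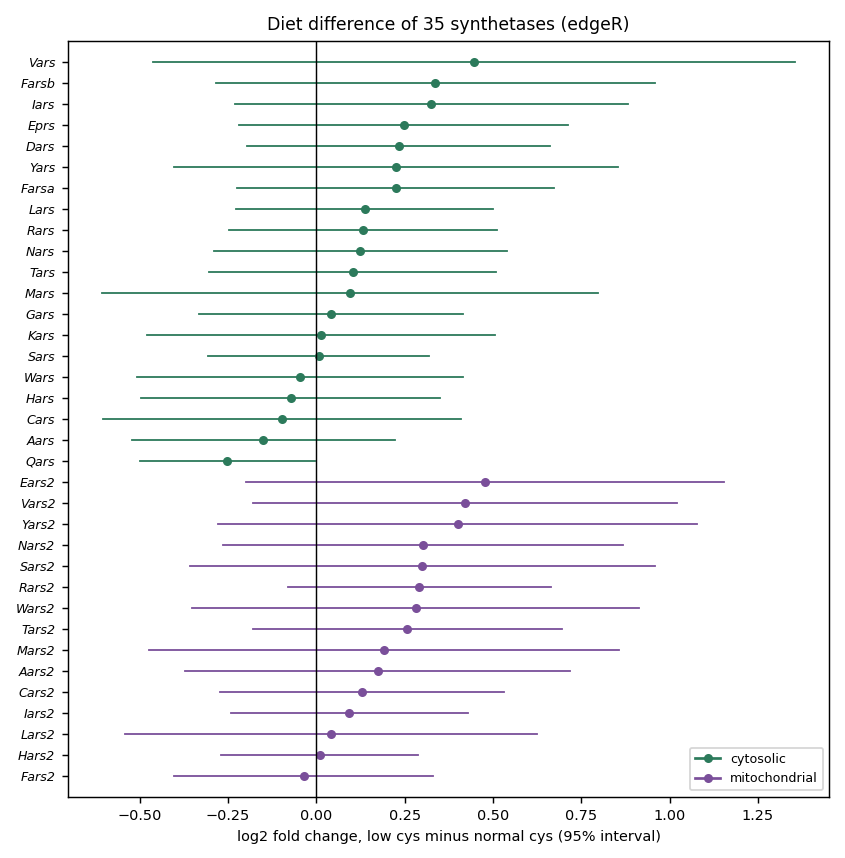
The plot gives the edgeR log2 fold change, low cys minus normal cys, of each of the 35 synthetases (points) with its 95% interval (lines), cytosolic in green and mitochondrial in purple. The interval of Qars ends just below 0 and the intervals of the other 34 include 0.

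Among the cytosolic members, 15 of 20 estimates lay above 0, with a median of 0.11 and a range from -0.25 to 0.45. Under library totals without TMM, 18 of 20 did, but the median of all genes then moved from 0.01 to 0.15. Of the mitochondrial members, 14 of 15 lay above 0, with a median of 0.26 and a range from -0.04 to 0.48, and all 15 did so under library totals. Relative to the median of all genes, library totals left the cytosolic median at 0.11, while the mitochondrial median went from 0.25 to 0.24. Members of the multisynthetase complex, a large cytosolic assembly that holds 8 of the 20 with 3 scaffold proteins, had 7 of 8 estimates above 0 and a median of 0.13. The 12 cytosolic members outside it had 8 above 0 and a median of 0.07. The 12 cytosolic members usually listed as ATF4 targets had 9 above 0 and a median of 0.10, and the other 8 had 6 above 0 and a median of 0.18. None of these subsets holds a member called at an adjusted p under 0.05.

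Qars encodes the cytosolic glutaminyl-tRNA synthetase, a part of the multisynthetase complex, and lies at chr9:108508005-108515941 on the plus strand (GRCm38). Its CPM were 179.4, 169.4, 176.5 and 187.4 in the normal cys libraries X17SI4, X32SI4, SI9 and X1SI4, and 143.4, 153.6 and 151.9 in the low cys libraries X23SI4, X26SI4 and X10SI4. The 3 low cys mice all lay below the 4 normal cys mice, as did 3.51% of all genes tested, and Qars was the 1 member of 35 whose groups did not overlap in either direction, against 6.83% of all genes (3.32% higher). The means were 178.2 ± 7.45 CPM (SD, n = 4) and 149.6 ± 5.46 CPM (SD, n = 3). The log2 fold change was -0.25 (SE 0.110, 95% interval -0.50 to -0.004, edgeR with Benjamini-Hochberg adjusted p = 0.794). A two-sided exact permutation test gave p = 0.0286, the smallest value that the 35 splits of 7 libraries allow. Groups that do not overlap give a p at or near that smallest value, and Qars was singled out of 35 members after its values were seen. Qars had the smallest spread of all members among the normal cys mice, with a highest level 1.11 times the lowest. The call at the unadjusted threshold was lost when any 1 library was left out (log2 fold changes of -0.27 to -0.21), with no filter on low counts, with at least 10 counts in every library, and under library totals (log2 fold change -0.11), where the median of all genes moved to 0.15. Relative to that median Qars stood at -0.26 in both scalings.

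Glutaminyl-tRNA in mitochondria is made by another route, in which a glutamyl-tRNA synthetase first misloads the transfer RNA and an amidotransferase then converts it. Ears2, the mitochondrial glutamyl-tRNA synthetase, had 7.16, 5.81, 4.68 and 3.11 CPM with normal cys and 9.14, 5.75 and 6.70 CPM with low cys. The ranges overlapped, and the log2 fold change was 0.48 (95% interval -0.20 to 1.15, two-sided exact permutation p = 0.286). The 3 genes of the amidotransferase (Gatb, Gatc and Qrsl1) and the formyltransferase Mtfmt had 3 of 4 estimates above 0 and a median of 0.07, with none at an unadjusted p under 0.05.

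The synthetases of the amino acids that the diet bears on did not pass the test. Cars, the cytosolic cysteinyl-tRNA synthetase (chr7:143557230-143600090, minus strand), had 26.9, 21.2, 18.2 and 17.5 CPM with normal cys and 26.2, 15.7 and 16.6 CPM with low cys. The 3 low cys mice spanned nearly the whole range of the normal cys mice, with 2 of them below all 4. The log2 fold change was -0.10 (95% interval -0.60 to 0.41, two-sided exact permutation p = 0.629), and its sign turned to 0.05 under library totals. Cars2, which charges cysteine in mitochondria, had 13.6, 13.9, 10.9 and 9.46 CPM with normal cys and 14.1, 12.4 and 12.7 CPM with low cys. Its log2 fold change was 0.13 (95% interval -0.27 to 0.53, two-sided exact permutation p = 0.400). Of the exon length of Cars2, 20.5% overlaps Carkd on the other strand, and whether the counting used strand is not given in the sources used here.

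Alanine was added to the low cys diet. Aars had 94.4, 90.1, 63.3 and 68.6 CPM with normal cys and 77.3, 67.4 and 69.1 CPM with low cys, so that all 3 low cys mice lay inside the normal cys range. The log2 fold change of Aars was -0.15 (95% interval -0.52 to 0.22). Aars shares 13.8% of its 50-base stretches with other genes, most visibly the neighbouring Exosc6. Aars2, the mitochondrial alanyl-tRNA synthetase, had 8.94, 11.2, 5.89 and 6.83 CPM with normal cys and 8.61, 8.56 and 10.6 CPM with low cys, a log2 fold change of 0.17 (95% interval -0.37 to 0.72) that was 0.04 without SI9 and 0.38 without X32SI4.

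Methionine is the other sulfur amino acid of proteins and the source from which cysteine can be made. Mars, the cytosolic methionyl-tRNA synthetase, had 29.9, 21.6, 13.7 and 14.4 CPM with normal cys and 29.0, 15.9 and 18.7 CPM with low cys. Its groups overlapped throughout, and the log2 fold change was 0.10 (95% interval -0.61 to 0.80). Mars2 had 3.81, 2.59, 3.21 and 5.40 CPM with normal cys and 4.69, 3.38 and 4.77 CPM with low cys, a log2 fold change of 0.19 (95% interval -0.47 to 0.86).

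Within a library, the ratio of the cytosolic to the mitochondrial enzyme of an amino acid does not depend on library size, and it was tested for these 3 amino acids. The log2 count ratio of Cars to Cars2 was 0.98, 0.61, 0.74 and 0.88 with normal cys and 0.90, 0.34 and 0.39 with low cys, a difference of -0.26 (two-sided exact permutation p = 0.200, Benjamini-Hochberg adjusted over the 3 ratios 0.300). That difference was -0.16 without X26SI4 and -0.44 without X23SI4. The ratio of Aars to Aars2 was 3.4, 3.01, 3.42 and 3.32 with normal cys and 3.16, 2.97 and 2.7 with low cys. It differed by -0.34 (exact p = 0.0857, adjusted 0.257), and 2 of the 3 low cys mice lay below all normal cys mice. Without X10SI4 this difference was -0.22. The ratio of Mars to Mars2 differed by -0.11 (exact p = 0.83, adjusted 0.83), within a normal cys SD of 0.776.

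The 14 amino acid pairs took Eprs for glutamate and left out phenylalanine. The log2 count ratio was lower with low cys in 11 of them, with a median difference of -0.18. Wars to Wars2, the tryptophan pair, was the 1 pair of 14 whose groups did not overlap, beside 6.83% of all single genes tested. The pair was singled out after its values were seen. Its log2 ratio was 3.53, 3.58, 3.75 and 3.72 with normal cys and 3.25, 3.44 and 3.21 with low cys, a difference of -0.35 that was not tested. Wars, whose expression interferon raises in many cells, had 97.2, 72.9, 54.1 and 58.3 CPM with normal cys and 76.2, 66.7 and 62.2 CPM with low cys. The 3 low cys mice lay inside the normal cys range, with a log2 fold change of -0.05 (95% interval -0.51 to 0.41) that turned to 0.09 under library totals. Wars2 had 8.41, 6.09, 3.99 and 4.39 CPM with normal cys and 7.999, 6.12 and 6.70 CPM with low cys, a log2 fold change of 0.28.

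**Figure D2:**
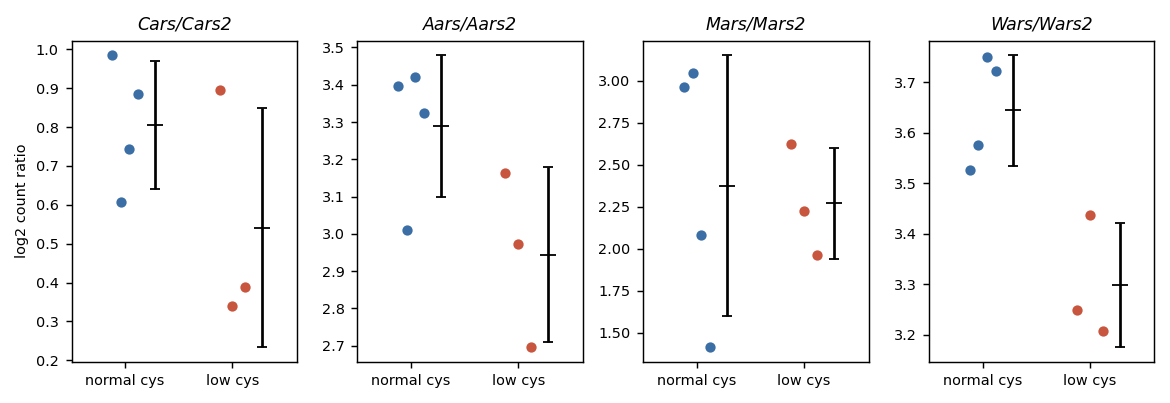
Each panel shows the log2 count ratio of the cytosolic to the mitochondrial synthetase of 1 amino acid in each library (points), with the mean and SD per diet (bars), on axes that differ between panels. The groups overlap for Cars/Cars2, Aars/Aars2 and Mars/Mars2, and the 3 low cys points lie below the 4 normal cys points for Wars/Wars2.

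The cytosolic members with the smallest p among those with estimates above 0 were Iars, Dars and Farsb. Iars had 32.03, 20.5, 16.7 and 20.5 CPM with normal cys and 36.3, 21.9 and 25.97 CPM with low cys, a log2 fold change of 0.33 (two-sided exact permutation p = 0.314). Dars, the aspartyl-tRNA synthetase of the complex, had 27.8, 18.6, 19.1 and 26.8 CPM with normal cys and 32.1, 23.9 and 25.3 CPM with low cys, a log2 fold change of 0.23. In both genes low cys library X23SI4 was the highest of the 7 and the other 2 low cys mice lay inside the normal cys range. Farsb, the beta subunit of phenylalanyl-tRNA synthetase, showed the same order, with 29.3, 23.7, 14.1 and 17.7 CPM with normal cys and 35.3, 19.6 and 25.3 CPM with low cys, a log2 fold change of 0.34. Without X23SI4 the log2 fold changes were 0.11 for Iars, 0.10 for Dars and 0.09 for Farsb. The partner subunit of Farsb, Farsa, had 15.1, 18.0, 12.3 and 10.8 CPM with normal cys and 18.8, 14.6 and 15.9 CPM with low cys, a log2 fold change of 0.22. Vars, the valyl-tRNA synthetase, had the largest cytosolic estimate (0.45) and also the widest spread, with 40.9, 42.2, 21.8 and 13.4 CPM in the normal cys mice, a 3.15-fold range.

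In the mitochondrial set the smallest p belonged to Rars2, Ears2 and Vars2. Rars2, the arginyl enzyme, had 15.5, 16.8, 16.03 and 13.7 CPM with normal cys and 20.3, 14.9 and 21.7 CPM with low cys. Low cys mice X23SI4 and X10SI4 lay above all normal cys mice and X26SI4 lay inside their range, with a log2 fold change of 0.29 (two-sided exact permutation p = 0.171). Vars2, the valyl enzyme, had 11.2, 15.2, 8.57 and 7.07 CPM with normal cys and 15.5, 11.2 and 15.5 CPM with low cys, a log2 fold change of 0.42 (two-sided exact permutation p = 0.143). Fars2, the single-subunit phenylalanyl enzyme, was the 1 mitochondrial member with an estimate below 0, with 16.8, 20.9, 15.4 and 14.8 CPM with normal cys and 16.2, 18.2 and 15.2 CPM with low cys. Its log2 fold change was -0.04 and turned to 0.10 under library totals.

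**Figure D3:**
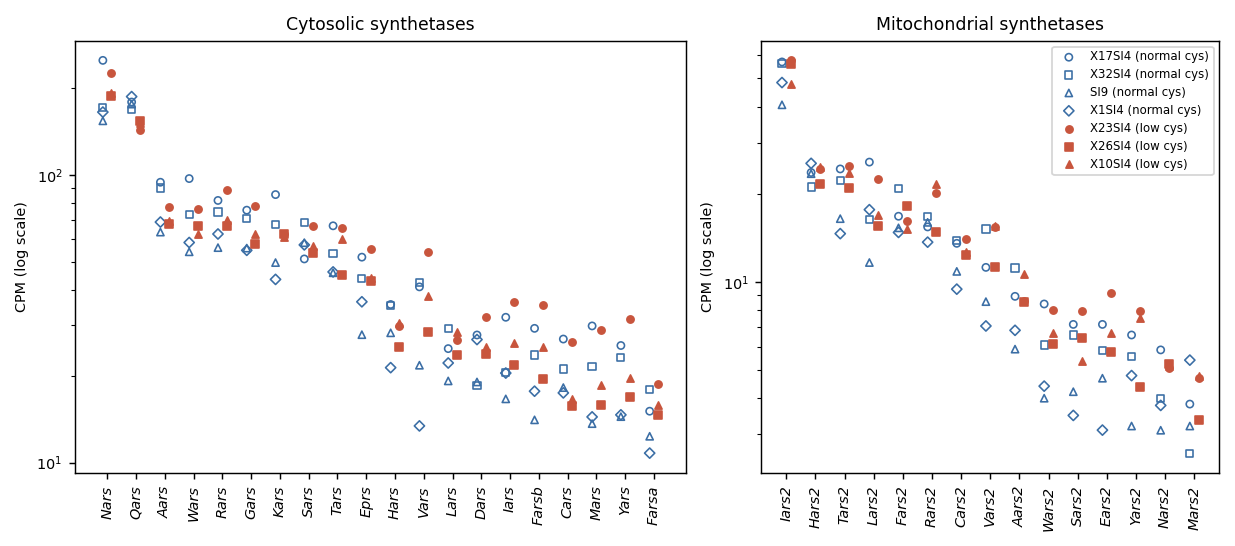
CPM of each synthetase in each of the 7 libraries (log axis), with cytosolic members on the left, mitochondrial members on the right, normal cys as open blue and low cys as filled red symbols, ordered by level. The red points lie among the blue points in nearly every gene, and the Qars points separate.

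Per kilobase of exon, the cytosolic synthetases stood above the mitochondrial ones. Over the 7 libraries the mean RPKM of cytosolic members ran from 3.32 (Farsa) to 73.3 (Nars), with a median of 9.83. The mitochondrial members ran from 1.05 (Wars2) to 7.90 (Fars2), with a median of 3.08. Nars, the cytosolic asparaginyl-tRNA synthetase, had 250.5, 172.2, 154.4 and 165.6 CPM with normal cys and 225.6, 188.6 and 193.1 CPM with low cys, with a log2 fold change of 0.12. It was followed by Kars (27.4 RPKM) and Gars (27.1 RPKM), the lysyl and glycyl enzymes that serve both compartments, and by Qars (26.8 RPKM). These 3 values differ by less than the SD of Gars among the normal cys mice (4.37 RPKM). The order depends on the length used. With the length of the longest coding transcript in place of all exons, a choice made after the data were seen, Nars stayed first, Qars came second at 59.3 RPKM, and Wars (38.2), Rars (33.8) and Sars (31.5) stood ahead of Kars (28.2) and Gars (27.3). On that scale the lowest cytosolic member was Iars (5.61 RPKM), and the mitochondrial members ran from Nars2 (1.22 RPKM) to Iars2 (9.497 RPKM), with medians of 12.4 and 3.63 RPKM for the cytosolic and mitochondrial sets.

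In 12 of the 14 amino acid pairs the cytosolic gene had the higher mean RPKM, and in 11 pairs it did so in all 7 libraries. The median ratio was 3.38, with a highest ratio of 67.1 for Nars over Nars2. The exceptions were cysteine, where Cars stood at 0.651 times Cars2, and isoleucine, where Iars stood at 0.806 times Iars2. Per kilobase of exon, Cars2 was higher than Cars in each of the 7 libraries, and Iars was higher than Iars2 in 1 of them. With coding-transcript lengths the same number of pairs, 12, had the higher cytosolic level. The Cars ratio was then 0.937 and the Iars ratio 0.591, and libraries were not counted on that length. Both exceptions involve exon overlap on the other strand, 20.5% of the exon length for Cars2 and 22.7% for Iars2, which overlaps Rab3gap2, and its part in the ratios was not tested.

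**Figure D4:**
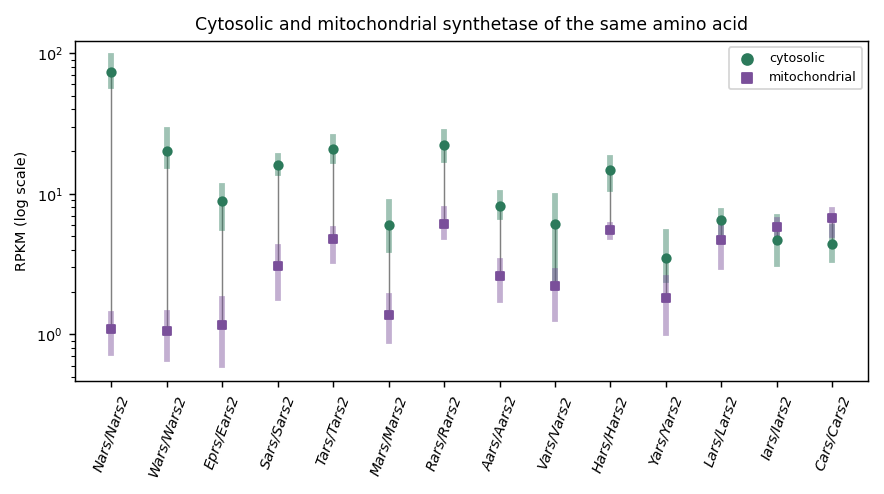
Mean RPKM over the 7 libraries (log axis) of the cytosolic (green circles) and mitochondrial (purple squares) synthetase of each of 14 amino acids, with bars for the lowest and highest library. The distance is widest for Nars/Nars2 and the order is turned round for Iars/Iars2 and Cars/Cars2.

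The mitochondrial members took 13.5%, 15.4%, 14.7% and 14.7% of the summed synthetase RPKM in the normal cys libraries and 14.8%, 15.6% and 15.8% in the low cys libraries. The means were 14.6% ± 0.767 (SD, n = 4) and 15.4% ± 0.550 (SD, n = 3), a difference of 0.807 percentage points that is close to the spread between mice. On other measures the difference was larger beside the spread. As a share of counts it was 1.16 percentage points (SDs 0.573 and 0.522), and the groups overlapped. With coding-transcript lengths, chosen after the data were seen, it was 1.22 (SDs 0.570 and 0.501). There the lowest low cys library (14.97%) lay just above the highest normal cys library (14.95%). No test was made of this sum over members.

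Mice of the same diet differed in the levels of many synthetases at once. Low cys library X23SI4 was the highest of the 7 for 15 of 35 members and normal cys library X17SI4 for 11, beside 18.0% and 13.2% of all genes. Normal cys libraries SI9 and X1SI4 were the lowest for 16 and 12 members, beside 13.5% and 24.9% of all genes. In X23SI4, 33 of 35 members lay above their own mean over the 7 libraries, in X17SI4 31 and in X32SI4 26, against 2 in SI9 and 5 in X1SI4. Low cys libraries X26SI4 and X10SI4 had 10 and 22. Among the 3 low cys mice, X23SI4 was highest for 25 of the 35 members and X26SI4 lowest for 28, whereas over all genes tested those shares were 34.95% and 36.0%. The median deviation of the cytosolic members from their own means was 0.32, 0.11, -0.32 and -0.23 log2 units in the normal cys libraries and 0.31, -0.13 and 0.02 in the low cys libraries. For the mitochondrial members it was 0.14, 0.02, -0.35 and -0.29 with normal cys and 0.27, 0.01 and 0.19 with low cys.

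Markers of dividing cells and of ileal epithelium varied over the same libraries. The summed CPM of 10 proliferation markers, among them the cell cycle protein Mki67, was 390, 298, 176 and 145 with normal cys and 438, 244 and 387 with low cys. All 10 estimates lay above 0, with a median of 0.57 and none at an unadjusted p under 0.05. The 8 nucleolar growth genes, which serve ribosome production, summed to 388, 324, 233 and 201 CPM with normal cys and to 440, 289 and 382 CPM with low cys, and all 8 estimates lay above 0. The 8 genes listed here as ileal enterocyte markers were Epcam, Vil1, Cdh1, Fabp6, Slc10a2, Apoa1, Fabp2 and Alpi, of which Epcam and Cdh1 are general epithelial genes. They summed to 27057, 31358, 44394 and 48275 CPM with normal cys and to 15395, 28142 and 27754 CPM with low cys. Of these 8, 1 estimate lay above 0, and Apoa1 stood at -0.79. X23SI4 was highest for both growth lists and lowest for the enterocyte list, and X1SI4 stood at the opposite end of each. The part of these markers in the synthetase estimates was not tested.

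**Figure D5:**
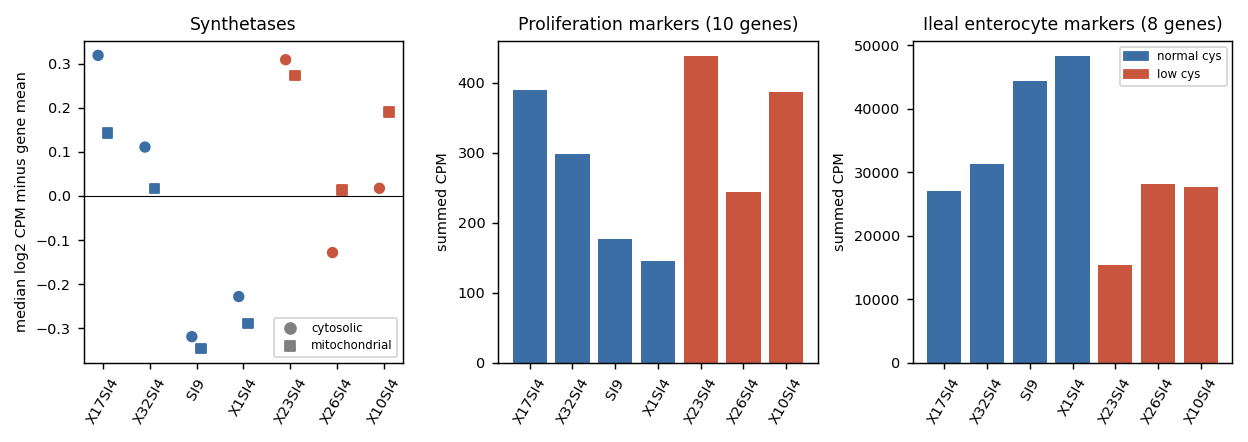
Left, median log2 deviation of cytosolic (circles) and mitochondrial (squares) synthetases from each gene's mean over the 7 libraries, and, middle and right, bars of the summed CPM of 10 proliferation and 8 ileal enterocyte markers, with normal cys in blue and low cys in red. X17SI4 and X23SI4 are high and SI9 and X1SI4 low in the left and middle panels, and X23SI4 is the lowest and X1SI4 the highest in the right panel. X10SI4 stands near X17SI4 in the middle panel, while its cytosolic point on the left lies at 0.02.

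Markers of other cell types are given for the same libraries. The 6 stroma markers summed to 4.11 to 8.93 CPM with normal cys and 11.8 to 18.6 CPM with low cys. Of these, 5 were tested, and all 5 estimates lay above 0, with a median of 1.03. At an unadjusted p under 0.05, 2 passed, beside 2.66% of all genes higher. In 2 the low cys mice all lay above the normal cys mice, beside 3.32% of all genes. The log2 fold changes were 1.55 for Dcn and 1.58 for Col3a1, both matrix proteins. The 6 smooth muscle markers had 6 of 6 estimates above 0, with 2 at an unadjusted p under 0.05. They summed to 2.34 to 12.1 CPM with normal cys and 5.63 to 38.2 CPM with low cys, the highest in X26SI4. The 8 B and plasma cell markers summed to 198 to 343 CPM with normal cys and 368 to 422 CPM with low cys. Of their estimates, 6 of 8 lay above 0, with a median of 0.23. The largest was that of Jchain, the joining chain of secreted antibody, at 1.25. The 4 Paneth cell markers had 4 of 4 estimates above 0, the 6 goblet cell markers 3 of 6 and the 6 T cell markers 1 of 6. None of these genes had an adjusted p under 0.05, and their part in the synthetase values was not tested.

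The pathway that raises synthetases when amino acids are short was read from 18 GCN2 and ATF4 genes. No gene of this list had an adjusted p under 0.05 with edgeR, 13 of 18 estimates lay above 0 and the median was 0.13. Trib3, a pseudokinase that ATF4 induces, was the 1 with an unadjusted p under 0.05. It had 9.82, 18.8, 19.6 and 16.9 CPM with normal cys and 8.20, 10.1 and 9.80 CPM with low cys, a log2 fold change of -0.80 (edgeR with Benjamini-Hochberg adjusted p = 0.794). The Trib3 groups overlapped through X17SI4. The largest estimate of the list was that of Chac1, a glutathione-degrading enzyme, at 1.52, with 12.9 CPM in X23SI4 and 1.19 to 2.29 CPM in the other 6 libraries. Atf4 itself had a log2 fold change of -0.20. Asns, the asparagine synthetase, had 27.3, 13.9, 7.68 and 11.2 CPM with normal cys and 32.04, 10.6 and 13.0 CPM with low cys. Its highest values were in X17SI4 and X23SI4, the libraries in which most synthetases were also high. Of the same list, Psat1 was also highest in these libraries, and Trib3 and Ddit3 were not. Ddit3 had 10.8 CPM in X17SI4 and 12.8 CPM in X23SI4, beside 26.8 in SI9 and 24.1 in X1SI4.

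Partners of the synthetases were read in the same way. Of the 3 scaffolds of the multisynthetase complex, 2 had estimates above 0. Eef1e1, the smallest of them, had 5.64, 4.41, 5.78 and 4.06 CPM with normal cys and 8.73, 5.31 and 9.22 CPM with low cys, a log2 fold change of 0.64 (edgeR with Benjamini-Hochberg adjusted p = 0.794, under 0.05 unadjusted). X23SI4 and X10SI4 lay above all normal cys mice and X26SI4 inside their range. The 4 trans-editing factors, which clear wrongly charged transfer RNA, had 0 of 4 above 0 and a median of -0.14. Estimates lay above 0 for 4 of 5 cytosolic elongation factors, 3 of 3 mitochondrial elongation factors and 5 of 5 genes of transfer RNA export and processing, all without an unadjusted p under 0.05. Of 10 interferon genes, 9 had estimates below 0, with Isg15, an antiviral ubiquitin-like protein, at -0.84.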

How the data were processed

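The deposited table holds raw counts per gene, which the authors made from paired-end stranded poly(A) reads of 50 bases. Reads were trimmed with Trim Galore 0.6.5 and filtered of ribosomal RNA with SortMeRNA, aligned to GRCm38 with STAR, and counted with featureCounts on an Ensembl annotation. The strand setting and the treatment of reads with several matches are not given in the sources used here.

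Genes were filtered with filterByExpr (minimum count 10), scaled by TMM and fitted across all genes with the quasi-likelihood test of edgeR 4.0.16 in R 4.3.3, with diet as the only term and Benjamini-Hochberg adjustment. DESeq2 1.42.0 and limma-voom (limma 3.58.1) were alternatives, and the edgeR fit was tested on simulated data. The labels name no batch and give no shared replicate numbers. Each mouse is taken as a replicate. Exon lengths, coordinates and overlaps come from the annotation of the deposited counts. Coding-transcript lengths and shared stretches come from GENCODE for GRCm38. Shared stretches are 50-base runs found in transcripts of another gene. Count ratios used a pseudocount of 0.5. Genes with older symbols were matched by Ensembl ID (Jchain is listed as Igj).

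The members and lists were chosen with earlier results of these data known. Values in every library are given for the cysteine, alanine and methionine enzymes, the 3 members per compartment with the smallest p in each direction, Wars, and the highest and lowest RPKM of each compartment. From other lists, genes with an unadjusted p under 0.05 were eligible, at most 3 per list, with Atf4 and Asns. Chac1, Psat1 and Ddit3 did not meet this rule and were named after their values were seen. Alternatives were other scaling, other tools, other filters on low counts, another pseudocount, other lengths and each library left out. A promoter stretch and a short gene list are not reported here.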

Additional observations from a re-analysis of the deposited data

How the results depend on the processing

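No member passed an adjusted p of 0.05 in any of the 13 alternatives run. At an unadjusted p under 0.05 the count of members was 0 with no filter on low counts, 0 with at least 10 counts in every library, and 0 to 2 when 1 library was left out (2, Iars and Nars2, without X17SI4). Under library totals it was 1, but the member was Rars2 and not Qars. Over all genes, 1112 of 22796 passed with no filter and 719 of 13149 with at least 10 counts in every library. The number was 1763 of 14786 without X17SI4, 258 of 15076 without X23SI4 and 1037 of 14869 under library totals. The cytosolic median log2 fold change ran from -9.4e-06 (without X23SI4) to 0.23 and the mitochondrial from 0.14 (without SI9) to 0.34 when 1 library was left out. Estimates above 0 then numbered 10 to 17 of 20 and 12 to 14 of 15. Relative to the median of all genes, library totals left the cytosolic median at 0.11 and the mitochondrial at 0.24. Among members with values given in every library, library totals turned the signs of Cars (0.0546), Fars2 (0.0983) and Wars (0.0937). With 1 library left out, Cars ran from -0.36 to 0.0578, Mars from -0.19 to 0.36, Fars2 from -0.10 to 0.10, Wars from -0.16 to 0.15 and the difference of the Mars to Mars2 ratio from -0.43 to 0.12, and the cause was not tested. The mitochondrial share differed by 0.454 to 1.22 percentage points, the last with coding-transcript lengths, an alternative chosen after seeing the data. No paired analysis was possible because the labels give the mice no shared replicate numbers. Counts per member and library were as few as 54.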
